A study of Mus musculus with 3 samples.

Results

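The genes described here are 6 keratins of stratified epithelia, Krt4, Krt5, Krt13, Krt14, Krt15 and Krt6a, and the transcription factor gene Trp63. These 7 genes, of 46675 gene symbols in the files, were followed by name in 3 single-cell RNA libraries from the mouse hindstomach, the glandular part of the stomach, at embryonic day 18.5. The control library came from embryos with Shh-Cre alone. The YAP5SA library carried Shh-Cre and YAP5SA, a form of the Hippo pathway co-activator YAP that lacks the phosphorylation sites that restrain it. The Yap knockout library carried Shh-Cre with both Yap alleles floxed (YaploxP/loxP). All 3 groups share the Cre, which is driven by Shh and acts mainly in epithelium of endodermal origin, so stromal, nerve and blood cells are largely outside its reach. Each genotype is 1 library, and the sources used here do not give the number of embryos in it, so no difference between genotypes has a replicate check or a p-value. Every interval below is a 95% interval that covers counting error only.

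Keratins form the intermediate filaments of epithelial cells as pairs of a type I and a type II protein. In stratified squamous epithelia the basal layer carries Krt5 paired with Krt14, with Krt15 as a further basal type I keratin, and the layers above it in the mouse oesophagus and forestomach carry Krt4 paired with Krt13. Krt6a marks stressed, regenerating or specialised stratified cells, and Trp63 encodes p63, which maintains the basal layer. The glandular stomach is lined by a simple epithelium, whose keratins are Krt8, Krt18, Krt19 and, in part, Krt7 and Krt20. The mouse forestomach, which borders the glandular part, is squamous.

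Cells were split by a squamous gate, which a cell entered when at least 3 of Krt13, Cnfn, Krt5, Trp63 and Krt6a had a unique molecular identifier (UMI, a tag that counts 1 captured RNA molecule). Cnfn encodes cornifelin, a protein of the cornified envelope. Since Krt13, Krt5, Trp63 and Krt6a define the gate, their levels inside it are a description, while Krt4, Krt14 and Krt15 were not used by it. Outside the gate, a cell took the class with the most detected markers of 6. Levels are summed UMIs per 1000000 UMIs (CPM). A gene was called higher or lower than in control where log2 of the ratio of levels, with 5 CPM added to both, was past 2-fold, provided that 1 of the 2 libraries reached 20 CPM.

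The libraries kept 6959 control, 8518 YAP5SA and 4890 Yap knockout cells, with medians of 4900, 5224.5 and 4979.5 UMIs. The epithelial class outside the gate held 159, 1016 and 260 cells, and was deeper in YAP5SA (median 8613.5 UMIs) than in control (4883) and Yap knockout (6434.5). In that class the 4 gland markers (Pgc, Muc6, Tff2 and Pga5) summed to 19072 CPM in control, 302 in YAP5SA and 23239 in Yap knockout, while the 6 epithelial markers that define it summed to 1408, 1639 and 1675 CPM. No pit, gland, parietal, endocrine or intestinal subclass was given to 943 of the 1016 YAP5SA, 28 of the 159 control and 69 of the 260 Yap knockout epithelial cells, so the classes compared differ in make-up as well as in genotype. Yap1, the targeted gene, was at 53.4 CPM (77 UMIs) in control, 55.7 CPM (668 UMIs) in YAP5SA and 24.1 CPM (68 UMIs) in Yap knockout epithelial cells. Tags from 3′ ends need not lie in the deleted exons, nor come from the transgene, so these values check the labels only in part.

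Upstream sequences are shown for 2 members, Krt13 of the suprabasal pair and Krt5 of the basal pair, because both windows end at the 5′ end of the gene. The RefSeq table of mouse build GRCm38.p6 held windows for 3 of the 7 members, Krt5, Krt13 and Krt14, and the one for Krt14 lay inside the gene and is not printed. Krt4, Krt15, Krt6a and Trp63 had no entry. Each run is the 250 bases before the start, 5′ to 3′ on the minus strand, at chr11:100121567-100121816 for Krt13 and chr15:101712906-101713155 for Krt5. Capitals mark matches to the AP-1 motif TGANTCA or to the TEAD motif GGAATG, searched on both strands; TEAD factors are the DNA-binding partners of YAP.
Krt13: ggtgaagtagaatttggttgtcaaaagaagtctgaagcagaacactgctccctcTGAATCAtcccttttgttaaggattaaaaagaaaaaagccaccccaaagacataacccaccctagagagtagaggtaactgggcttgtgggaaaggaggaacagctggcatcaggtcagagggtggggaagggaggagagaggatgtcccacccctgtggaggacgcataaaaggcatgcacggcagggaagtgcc
Krt5: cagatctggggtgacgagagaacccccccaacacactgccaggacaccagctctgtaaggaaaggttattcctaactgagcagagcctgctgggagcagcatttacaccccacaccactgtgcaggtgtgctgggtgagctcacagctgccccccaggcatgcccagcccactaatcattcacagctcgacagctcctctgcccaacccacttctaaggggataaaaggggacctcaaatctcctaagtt
The Krt13 window held 1 AP-1 match and no TEAD match, and the Krt5 window held neither. Over all 32851 windows of the same 250 bases, 12.6% held the TEAD letters and 6.75% the AP-1 letters. These are letters in a short window and no measurement of binding.

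Cells of the squamous gate were rare in every library. The gate held 16 control cells (0.230%, Clopper-Pearson 0.131 to 0.373), 37 YAP5SA cells (0.434%, 0.306 to 0.598) and 3 Yap knockout cells (0.0613%, 0.0127 to 0.179). The YAP5SA and control intervals overlap, and the gated cells were far deeper than their libraries in control and YAP5SA (median 16861.5 and 14627 UMIs) but not in Yap knockout (4037). After each cell was thinned to 2000 UMIs, the gate held 7 of 5817 cells in control (0.120%), 11 of 7140 in YAP5SA (0.154%) and 3 of 3937 in Yap knockout (0.0762%), and no order between the genotypes can be read at this depth. No cell had all 5 gate genes, and 5 of the 16 control and 7 of the 37 YAP5SA gated cells had no gate gene above 2 UMIs.

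The gate edge was soft. Cells with exactly 3 gate genes carried Krt15 at 2842 CPM in control and 5791 CPM in YAP5SA, and cells with exactly 2, which stayed outside (49 and 108 cells), at 779 and 1773 CPM. Krt4, from the suprabasal pair, was at 1143 and 3933 CPM with exactly 3 gate genes and at 52.9 and 806 CPM with exactly 2. Epithelial markers did not set the gated cells apart evenly: 10 of 16 control, 30 of 37 YAP5SA and all 3 Yap knockout cells had at least 3 of the 6 epithelial markers. No epithelial marker was found in 2 gated control cells and 1 gated YAP5SA cell. Muscle markers reached 3 of 6 in 15, 27 and 1 of the gated cells, and fibroblast markers in 13, 10 and 0. The summed muscle markers had a median of 1267 CPM per gated control cell and 773 CPM per gated YAP5SA cell, with highest cells at 42967 and 68509. The part of muscle and fibroblast RNA in the levels was not tested.

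The suprabasal pair was abundant inside the gate. Krt13 stood at 3719 CPM in control (988 UMIs), 3417 in YAP5SA (2223 UMIs) and 17569 in Yap knockout (374 UMIs, of which 301 came from 1 cell). Per cell, Krt13 ran from 0 through a median of 9.85 to 283 UMIs per 10000 in control and from 0 through 10.2 to 467 in YAP5SA, so the ranges overlap throughout. Krt4, which the gate did not use, stood at 1400 CPM in control (1261 to 1550), 3636 in YAP5SA (3491 to 3785) and 1315 in Yap knockout (874 to 1901). The YAP5SA level of Krt4 was 2.60 times that of control (2.33 to 2.90), with a UMI in 36 of 37 cells against 11 of 16. The highest cell held 138 of the 372 Krt4 UMIs in control and 517 of the 2365 in YAP5SA. This ratio moved with the rule for the gate, as given in the section on processing choices. Krt6a stood at 493, 267 and 6858 CPM, and 116 of its 146 Yap knockout UMIs came from 1 cell.

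Of the basal keratins inside the gate, Krt14 differed most between YAP5SA and control. Krt14 had 579 UMIs in 24 of 37 YAP5SA cells (890 CPM, 819 to 966), 7 UMIs in 3 of 16 control cells (26.3 CPM, 10.6 to 54.3) and none in the 3 Yap knockout cells, where 0 of 21288 UMIs allows up to 141 CPM. The ratio of YAP5SA to control was 33.8 (16.3 to 84.4). Part of the 3′ end of Krt14 is identical to Krt16 or Krt17, so some of its UMIs could belong to these relatives. Its partner Krt5 did not follow: it stood at 406 CPM in control, 311 in YAP5SA and 846 in Yap knockout, with a UMI in 10 of 16, 19 of 37 and 3 of 3 cells. Krt15 stood at 2875 CPM in control, 5660 in YAP5SA and 5731 in Yap knockout, and the YAP5SA to control ratio of 1.97 (1.82 to 2.13) lay just under the 2-fold limit. Trp63 was sparse, with 13 UMIs in 6 control cells, 22 UMIs in 14 YAP5SA cells, no cell above 5 UMIs, and none in Yap knockout.

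Across all genes inside the gate, 10.1% were at least 2-fold higher in YAP5SA than in control and 13.4% at least 2-fold lower. Of the 3 members that the gate did not use, Krt4 and Krt14 were past that limit and Krt15 was not. The gated control cells also differed in other RNA: Pga5, which encodes a pepsinogen of gland cells, was at 2514 CPM in control and 7.69 in YAP5SA, and Col1a1, a fibroblast collagen gene, at 7509 and 2251 CPM. A single gated control cell had gland markers at 37859 CPM, where the median gated control cell had 552. Whether these RNAs have a part in the keratin ratios was not tested.

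**Figure D1:**
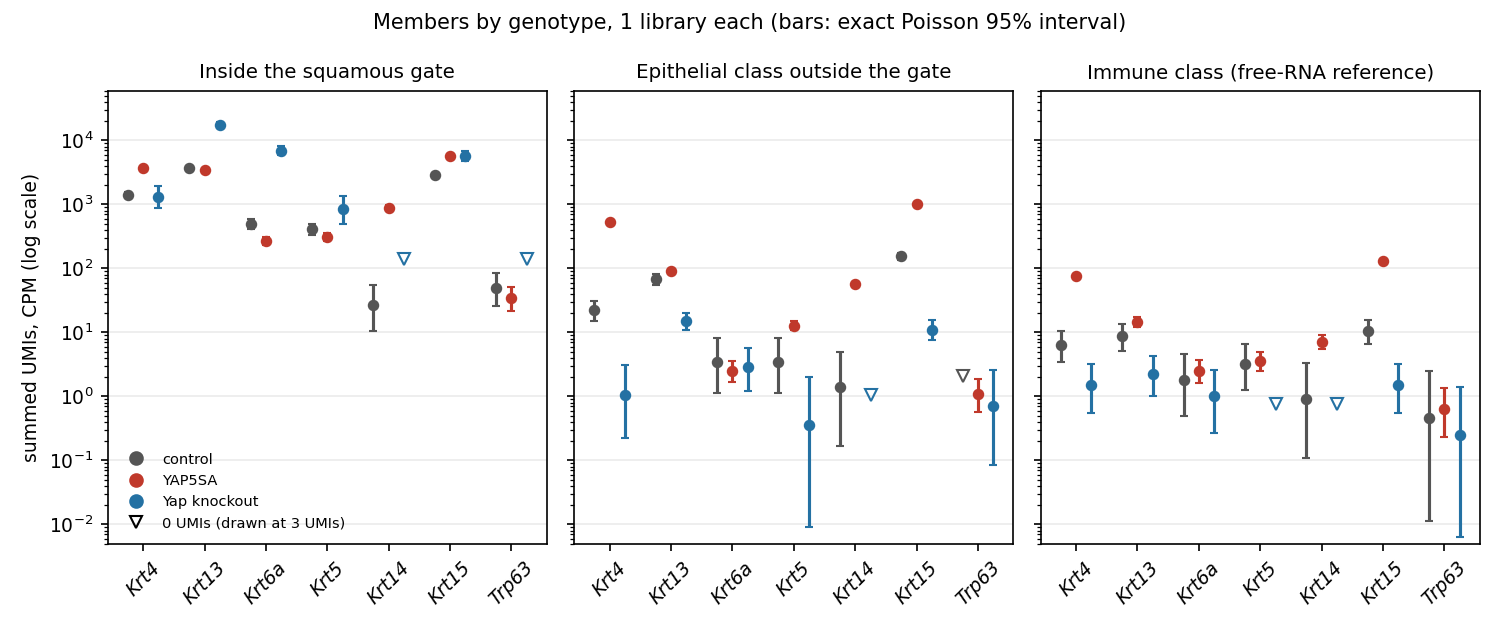
Summed level of the 7 genes in CPM (log axis) inside the squamous gate, in the epithelial class outside it and in the immune class, with 1 point per library and exact Poisson 95% intervals. Open triangles mark 0 UMIs and stand at the level of 3 UMIs. Krt4, Krt14 and Krt15 of YAP5SA lie above control in all 3 panels, by the largest ratios in the epithelial class for Krt4 (23.7) and Krt14 (40.9).

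Krt13 and Krt5 both admit cells to the gate, so how they share gated cells is partly set by its rule. In control, 7 gated cells had at least 10 Krt13 UMIs and 6 had at least 5 Krt5 UMIs, and 2 cells met both limits. In YAP5SA, 19 cells passed the Krt13 limit and 11 the Krt5 limit, again with 2 in common. Cnfn, the envelope gene, had a UMI in 25 gated YAP5SA cells, and 7 of those had Krt5, while all 12 cells without Cnfn had Krt5; since 3 of 5 genes were needed for entry, part of this split is set by the gate. Krt4 and Krt15, which the gate did not use, were found together in 36 of 37 YAP5SA cells and 8 of 16 control cells. Krt4 was found in 36 YAP5SA and 11 control cells and Krt15 in 37 and 12, so the joint counts show no pairing. Krt14 had a UMI in 16 of 19 Krt5-positive YAP5SA cells and in 3 of 10 Krt5-positive control cells. Among gated cells without Krt5 it had a UMI in 44.4% in YAP5SA and 0% in control. With or without Krt5, Krt14 was found in 24 of 37 YAP5SA and 3 of 16 control cells. Trp63 had no UMI in 23 of 37 YAP5SA and 10 of 16 control cells, although the median gated cell was deep.

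**Figure D2:**
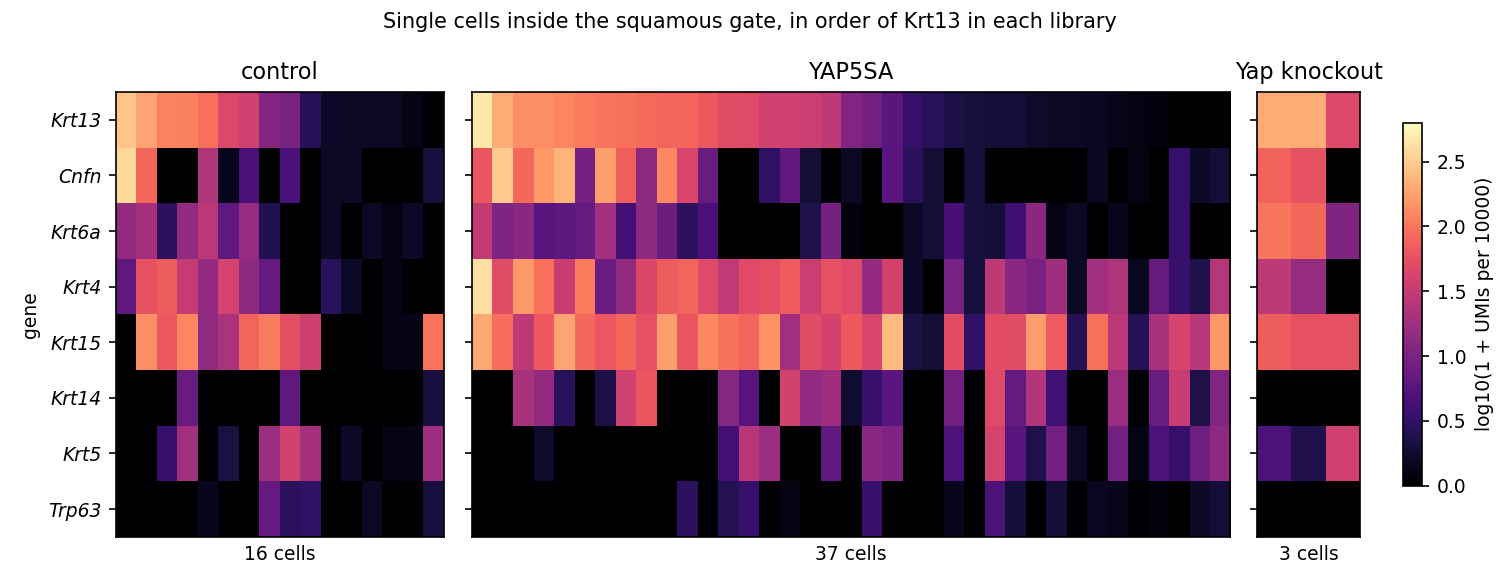
Each column is 1 cell inside the squamous gate (16 control, 37 YAP5SA and 3 Yap knockout), ordered by Krt13, and the colour is log10(1 + UMIs per 10000). Cells at the left with high Krt13 mostly carry Cnfn, Krt6a and Krt4, Krt5 and Trp63 sit mainly to the right, and Krt14 is spread over the YAP5SA cells with no UMI in the Yap knockout cells.

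A second gate that uses none of the 7 genes (at least 3 of Cnfn, Calml3, Dsg3, Dsc3, Pkp1, Sbsn and Bnc1) held 3 control, 17 YAP5SA and 1 Yap knockout cells, of which 3, 14 and 1 were also in the first gate. These few cells were rich in the suprabasal keratins and had few UMIs of Krt5 and Trp63. In them Krt13 stood at 11657 CPM in control, 7069 in YAP5SA and 20555 in Yap knockout, and Krt4 at 3659, 6588 and 1434 CPM. Krt5 had only 2 UMIs in the 17 YAP5SA cells (6.50 CPM) and 5 UMIs in the 3 control cells (106 CPM), and Trp63 had 1 UMI in each of these libraries. Krt14 again had UMIs in YAP5SA (365 in 11 of 17 cells, 1186 CPM) and none in the 3 control cells, where 0 UMIs allows up to 63.8 CPM.

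Most Krt4 and Krt15 RNA of the YAP5SA library lay outside the squamous gate. Of 12623 Krt4 UMIs in that library, 18.7% were inside the gate and 50.1% in the epithelial class outside it, whereas in control 54.1% of 687 UMIs were inside and 4.66% in the epithelial class. For Krt15, 16.7% of 22029 YAP5SA UMIs were inside the gate and 55.5% in the epithelial class, against 35.0% and 10.1% of 2180 control UMIs. The epithelial class was 11.9% of YAP5SA cells but 2.28% of control cells, so these UMI shares also move with its size. Most Krt13 RNA was inside the gate in each library (62.5% in control, 54.9% in YAP5SA, 73.5% in Yap knockout), and so was most Krt6a RNA (57.0%, 59.4% and 74.1%). Krt13 and Krt6a admit cells to the gate, so these shares are partly set by its rule. Krt5 and Trp63, also gate genes, had 32.0%, 36.7% and 64.3% (Krt5) and 26.0%, 33.3% and 0% (Trp63) of their UMIs inside.

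In the epithelial class outside the gate, Krt4 stood at 22.2 CPM in control (15.2 to 31.4, 32 UMIs), 527 CPM in YAP5SA (6320 UMIs) and 1.06 CPM in Yap knockout (3 UMIs). The YAP5SA level was 23.7 times that of control (16.8 to 34.7), and control was 20.9 times Yap knockout (6.53 to 107). Krt15 stood at 153 CPM in control (221 UMIs), 1020 in YAP5SA (12235 UMIs) and 11.0 in Yap knockout (31 UMIs), so the 3 libraries fell in the same order as for Krt4. The Krt15 ratio of YAP5SA to control was 6.65 (5.82 to 7.63), and control was 14.0 times Yap knockout (9.55 to 21.0). Krt14, the basal keratin, had 2 UMIs in control (1.39 CPM), 681 in YAP5SA (56.8 CPM) and 0 in Yap knockout, where up to 1.06 CPM is allowed. Its ratio of 40.9 (11.3 to 338) rests on those 2 control UMIs, and it passed the 20 CPM minimum through YAP5SA alone.

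The other members differed less or were rare. The gate uses all of them (Krt13, Krt5, Krt6a and Trp63) and so took cells that carry them out of this class. Their levels here are therefore partly set by its rule. Krt13 stood at 68.0 CPM in control (98 UMIs), 90.3 in YAP5SA (1083 UMIs) and 14.9 in Yap knockout (42 UMIs). YAP5SA was 1.33 times control for Krt13 (1.08 to 1.65), below the 2-fold limit, and control was 4.57 times Yap knockout (3.15 to 6.72). With the second gate in place of the first, the log2 ratio of Krt13 for YAP5SA went from 0.38 to -1.16, so its direction depends on the gate. Krt5 had 152 UMIs in YAP5SA (12.7 CPM), 5 in control, all from 1 cell, and 1 in Yap knockout; it stayed under the minimum, and its log2 ratio of 1.06 for YAP5SA became -0.52 with the second gate. Krt6a was at 3.47, 2.50 and 2.84 CPM, and Trp63 had 0, 13 and 2 UMIs.

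Of the 4 members with 20 CPM, Krt4, Krt14 and Krt15 were at least 2-fold higher in YAP5SA than in control epithelial cells, where 9.28% of 7351 genes were higher and 6.97% lower. Against Yap knockout, 3 members had 20 CPM and all 3, Krt4, Krt13 and Krt15, were at least 2-fold lower, where 3.09% of 6947 genes were lower and 2.3% higher. All 3 reached 20 CPM in control alone (22.2, 68.0 and 153 CPM), against 1.06, 14.9 and 11.0 CPM in Yap knockout. Without its highest cell, control Krt4 was at 14.6 CPM, under this minimum. In the YAP5SA comparison Krt14 reached it in YAP5SA alone. Entry through only 1 library favours a call without forcing it, so these counts are read gene by gene. The median log2 ratio of all genes was 0.11 for YAP5SA and 0.01 for Yap knockout, small beside the members' values.

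The size of these differences moved with the rule for the gate, while their direction held under each alternative run for Krt4, Krt14 and Krt15. The log2 ratio of YAP5SA to control ranged from 2.31 to 4.82 for Krt4, with 4.29 as given above, from 2.44 to 4.60 for Krt14 and from 1.79 to 3.78 for Krt15. The lowest values of Krt4 and Krt15 came with the gate that uses no member. Against Yap knockout the log2 ratio ranged from -3.68 to -1.56 for Krt4 and from -3.69 to -1.96 for Krt15.

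The control levels of this class rest on few cells. A single control cell held 73 of 221 Krt15 UMIs, 53 of the 98 Krt13 UMIs came from 1 cell, and the 10 highest cells held 89.6% of the Krt15 and 84.4% of the Krt4 UMIs. Without the highest cell of each library, the YAP5SA to control ratio was 34.6 for Krt4, 9.58 for Krt15 and 2.49 for Krt13, so Krt13 then passed the 2-fold limit. Control Krt4 was then at 14.6 CPM, under the 20 CPM minimum, so Krt4 was no longer called lower in Yap knockout. Krt13 and Krt15 were still called lower there. Among epithelial cells with at most 1 gate gene (156 control, 966 YAP5SA and 258 Yap knockout), the ratio was 40.8 for Krt4, 14.9 for Krt15 and 20.7 for Krt14. In those cells the Yap knockout level was 0.189 of control for Krt15 (0.119 to 0.293) and 0.495 of control for Krt13 (0.273 to 0.898). Krt4 was at 10.8 CPM in control and 0.358 in Yap knockout there, and Krt13 at 18.1 and 8.94 CPM. Both genes were thus under the 20 CPM minimum in that comparison.

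Free RNA puts UMIs of an abundant gene into cells that do not express it, and the immune class was read as a reference for it. Krt4 was at 6.34, 75.6 and 1.49 CPM in the immune class of control, YAP5SA and Yap knockout, so this background was also highest in YAP5SA, at 11.9 times control (7.06 to 21.9). For Krt15 the immune level of YAP5SA was 12.7 times that of control (8.40 to 20.0). Against it, the YAP5SA epithelial class had 6.97 times as much Krt4 (6.46 to 7.54), 7.73 times as much Krt15 (7.30 to 8.20), 8.03 times as much Krt14 (6.25 to 10.5) and 6.20 times as much Krt13 (5.20 to 7.45). Krt6a in YAP5SA epithelial cells stood at 1.00 times the immune level (0.567 to 1.79). In control the epithelial class held 14.7 times the immune level of Krt15 (9.56 to 23.7), 7.90 times that of Krt13 (4.80 to 13.7) and 3.50 times that of Krt4 (1.82 to 7.10). In Yap knockout, Krt4 in the epithelial class was at 0.713 times the immune level (0.115 to 3.34), and Krt15 and Krt13 were 7.37 and 6.65 times above it.

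Counting cells also put Krt4 highest in YAP5SA. After thinning to 2000 UMIs, Krt4 had a UMI in 2.19% of epithelial cells in control, 41.5% in YAP5SA and 0 of 233 in Yap knockout, which allows a share of up to 1.29%. The intervals of control (0.454 to 6.27%) and Yap knockout (0 to 1.57%) overlap, so no order between these libraries is read from the Krt4 shares. The immune class had 1.31%, 12.2% and 0.225%, against median depths of 4624, 4716 and 6571 UMIs before thinning. Krt15 had a UMI in 8.03%, 27.7% and 1.72% of epithelial cells and in 2.29%, 12.4% and 0.225% of immune cells. Before thinning the epithelial shares were 9.43%, 70.1% and 0.769% for Krt4 and 20.8%, 57.3% and 5.38% for Krt15.

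Krt4 and Krt15 were spread over YAP5SA epithelial cells in different ways. Krt4 was broad, with a median of 1.78 UMIs per 10000, a 90th percentile of 11.7 and a highest cell of 114. The 152 cells with at least 10 Krt4 UMIs held 72.7% of them and were deep, with a median of 17353 UMIs. In the immune class 27.3% of YAP5SA cells had a Krt4 UMI before thinning, and the part of free RNA in this breadth was not tested. Krt15 was carried by a minority: its median was 0.603, its 90th percentile 38.8 and its highest cell 296, and the 147 cells with at least 10 UMIs held 92.9% of its UMIs. Krt14 and Krt13 were narrower still, since 14 cells had at least 10 Krt14 UMIs, 16 had at least 10 Krt13 UMIs, and the 10 highest cells held 73.9% and 72.9% of their UMIs. All 16 cells with at least 10 Krt13 UMIs were among the 147 Krt15 cells, as were 15 of the 22 cells with at least 5 Krt14 UMIs, whereas only 2 cells passed both the Krt13 and the Krt14 limit. In thinned cells, 163 of 954 had both Krt4 and Krt15, 233 Krt4 alone, 101 Krt15 alone and 457 neither.

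**Figure D3:**
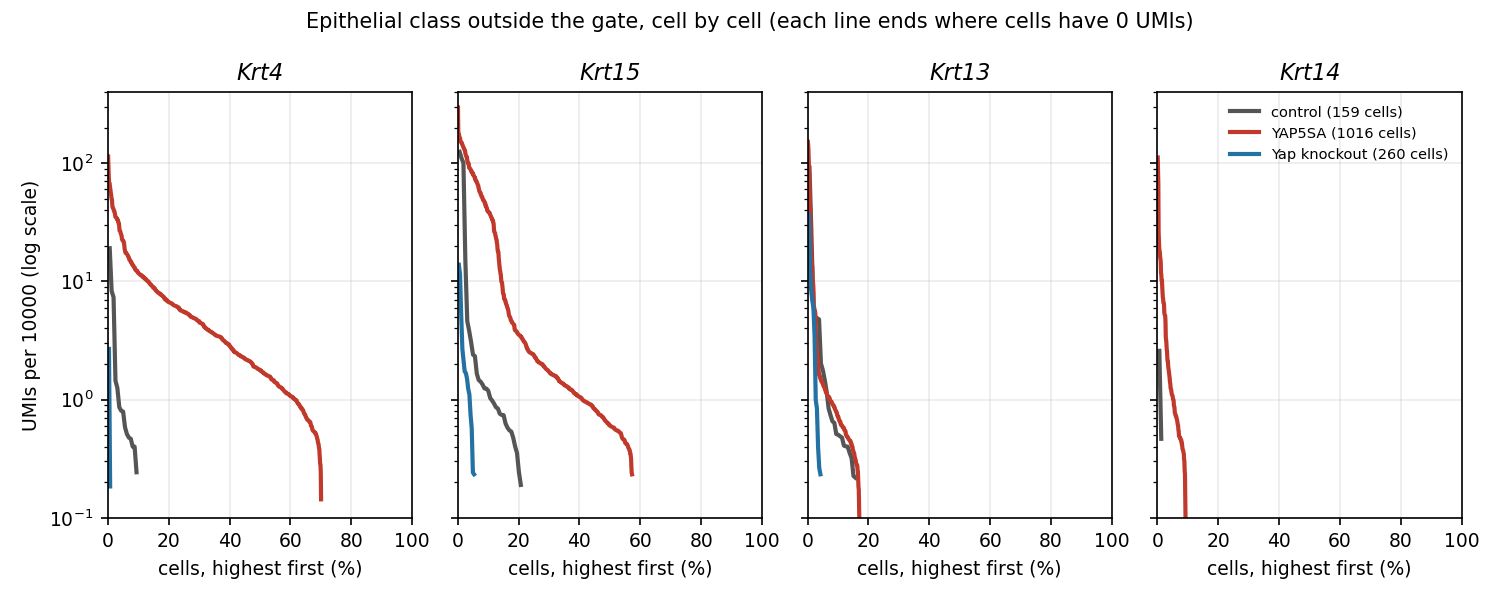
UMIs per 10000 (log axis) of Krt4, Krt15, Krt13 and Krt14 in each epithelial cell outside the gate, with cells of each library ordered from highest to lowest along the horizontal axis as a percent of 159 control, 1016 YAP5SA and 260 Yap knockout cells. A line ends where cells have 0 UMIs; the YAP5SA line for Krt4 declines slowly to 70.1% of cells, while that for Krt15 drops steeply after the highest cells.

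The 147 Krt15-rich YAP5SA cells were chosen by Krt15 itself, so their other genes are given as levels only. They had Krt4 at 1915 CPM against 251 in the other 869 epithelial cells, Krt14 at 255 against 17.4, Krt13 at 473 against 14.1 and Krt5 at 61.8 against 2.90. Their median depth was 9485 UMIs against 8197. The simple keratins stayed high in both sets, with Krt8 at 4523 and 3706 CPM and Krt18 at 3515 and 3505 CPM. Upk3bl, a uroplakin-like gene, was at 3297 against 253 CPM, and Col1a1, a gene of fibroblasts, at 2067 and 2075 CPM.

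Over all kept cells, where levels also move with the number of epithelial and gated cells, Krt4 was 13.7 times, Krt15 7.53 times and Krt14 4.22 times as high in YAP5SA as in control. These 3 of 4 members with 20 CPM were past the 2-fold limit, beside 4.29% of 7559 genes higher and 2.43% lower. Krt4 (15.2 CPM in control) and Krt14 (6.95 CPM) reached 20 CPM in YAP5SA alone, which favours a call. Krt13 was 1.91 times as high in YAP5SA as in control. Control was 5.82 times Yap knockout for Krt15 and 2.52 times for Krt13, both members with 20 CPM there. Beside them, 3.14% of 7958 genes were lower and 4.31% higher in Yap knockout. Both members reached 20 CPM in control alone (48.2 and 35.0 CPM), so these counts are read gene by gene. The median log2 ratio of all genes was 0.10 in that comparison.

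Across the other cell classes, the mesothelial class, the lining of the stomach's outer surface, carried some members of its own. In control it had Krt14 in 38 of 92 cells at 195 CPM (167 to 227) and Krt15 in 64 of 92 cells at 296 CPM (261 to 334), against immune levels of 0.906 and 10.4 CPM. It held 54.8% of all control Krt14 UMIs, more than the gate (2.23%). In YAP5SA its 26 cells had Krt14 at 518 CPM, with 48 of 101 UMIs from 1 cell, and Krt15 at 164 CPM, 1.24 times the immune level (0.847 to 1.77). In Yap knockout its 19 cells had Krt14 at 40.6 CPM (7 UMIs) and Krt15 at 238 CPM. Krt4 and Krt13 were near the immune level in this class in control (0.715 and 1.05 times) and had 0 UMIs in Yap knockout.

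**Figure D4:**
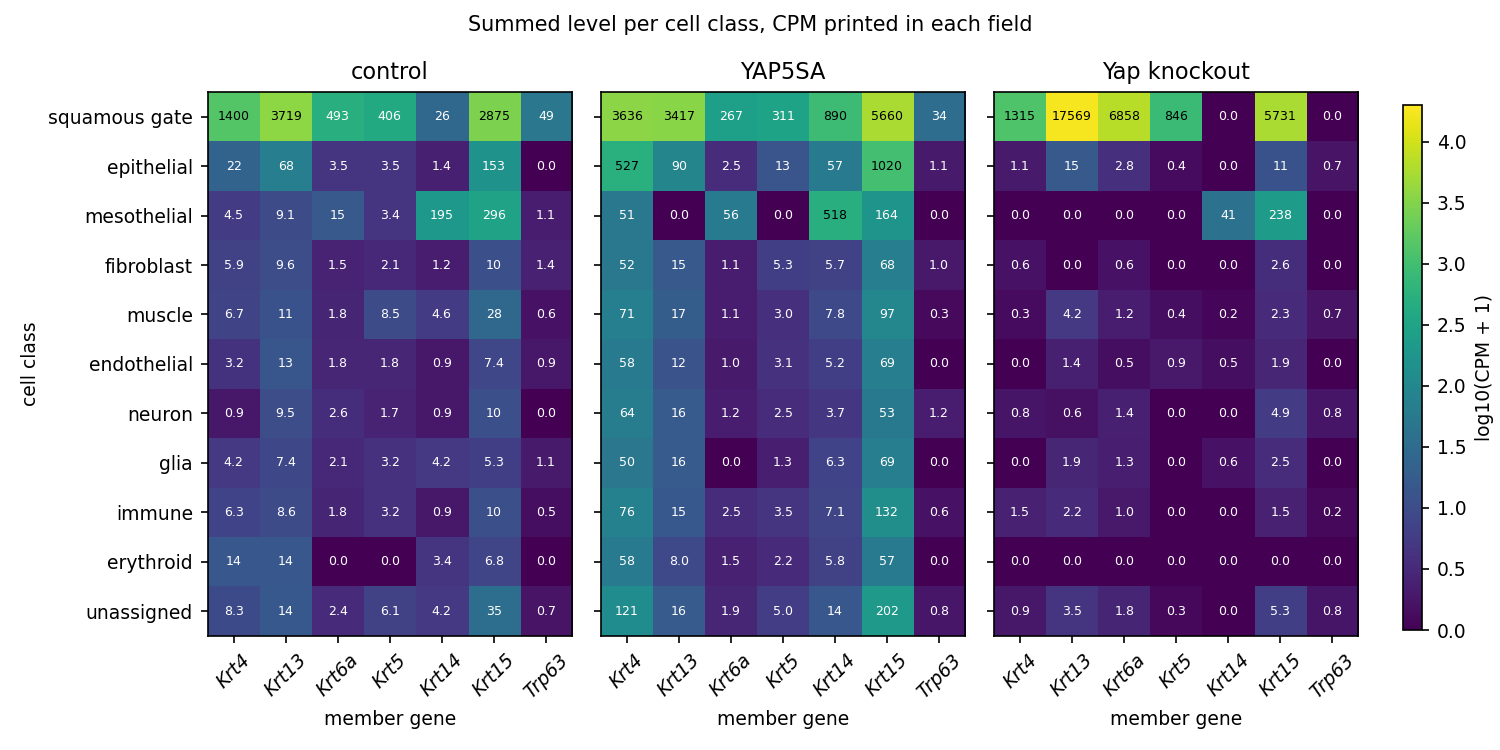
Summed level of each gene (columns) in each cell class (rows) for the 3 libraries, with the CPM printed in each field and colour on a log10(CPM + 1) scale. The gate row holds most of the highest values, the YAP5SA panel has Krt4 at 50.4 to 75.6 CPM in the mesothelial, stromal, nerve and blood classes, and the mesothelial row has Krt14 at 195, 518 and 40.6 CPM (control, YAP5SA, Yap knockout).

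The 3 genes whose log(1 + UMIs per 10000) was most like that of each member over all 8518 YAP5SA cells, by Pearson's r, are a description, because cells of a library share depth, free RNA and cell class. Krt13 and Krt6a had the same leading genes of the cornified envelope, Cnfn (r = 0.41 and 0.38), Sprr3 (0.33 and 0.31) and Sbsn (0.33 and 0.30). Krt4 was most like Upk3bl (0.48), Clic3 (0.44) and Msln (0.44), and Krt15 most like Upk3bl (0.50), Cysrt1 (0.41) and S100a14 (0.40). In the 6959 control cells the r of Upk3bl was 0.29 with Krt4 and 0.32 with Krt15, that of Msln with Krt4 was 0.05, and that of Cnfn with Krt13 was 0.25. Krt14 was most like the keratin Krt17 (0.29, and 0.22 in control), Krtap3-2 (0.26) and Serpinb5 (0.26), and Krt5 most like Cbr2 (0.26), Trim29 (0.21) and Serpinb5 (0.20). For Trp63 no r exceeded 0.16, which in such sparse counts is no finding. Among the members, Krt4 with Krt15 had the highest r in YAP5SA (0.44, and 0.18 in control) and Krt5 with Krt14 the next (0.31, and 0.20 in control).

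Further genes of stratified epithelia were read in the epithelial class outside the gate from lists chosen by function. Of 12 other stratified keratins, 3 had 20 CPM in YAP5SA or control, and 2 of these were higher in YAP5SA, beside 9.28% of all genes. Both were below 20 CPM in control and entered through YAP5SA alone, so their count shows nothing about the list. Krt17, a keratin of activated and appendage epithelium, went from 9.02 to 86.3 CPM (9.56 times, 5.57 to 18.0) and Krt80 from 6.94 to 30.0 CPM (4.32 times, 2.32 to 9.09), while Krt23 was at 96.5 and 56.6 CPM. Krt6b, the close relative of Krt6a, had no UMI in any epithelial class. The 5 simple keratins all passed the minimum, and 2 were higher: Krt7 (7.50 times, 6.73 to 8.39) and Krt19 (3.41 times, 3.27 to 3.54). Krt8 (1.27 times), Krt18 (1.68 times) and Krt20 (1.14 times) stayed under 2-fold. Krt8 and Krt18 were at 3842 and 3507 CPM in YAP5SA, above Krt4 and Krt15, while Krt20 was at 23.8 CPM.

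Genes of the cornified envelope, the protein shell of differentiated squamous cells, were read next: of 17 listed, 6 passed the minimum and 5 were higher in YAP5SA. All 5 were below 20 CPM in control and entered through YAP5SA alone, so they are given as single genes and their count shows nothing about the list. Tgm1, the cross-linking transglutaminase, went from 2.08 to 36.9 CPM (17.7 times, 6.03 to 86.3, from 3 control UMIs). The plakins Ppl and Evpl were 5.63 times (3.20 to 11.0) and 5.19 times (3.57 to 7.84) as high, and Ecm1 was 2.58 times as high. Crct1 had no control UMI and 538 in YAP5SA, at least 21.5-fold higher against a floor of 3 UMIs over the control class. Sprr1a was at 648 and 906 CPM. Inside the gate, the envelope genes with the highest levels were Cnfn, Sprr1a and Ecm1, at 1122, 354 and 975 CPM in control and 1922, 1185 and 592 CPM in YAP5SA.

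Junction and adhesion genes differed from this. Of 10 desmosome genes 7 passed the minimum, and Perp alone, a desmosomal membrane protein gene and known p63 target, was past the limit (70.8 to 198 CPM, 2.79 times, 2.29 to 3.44). Dsg2 was next at 1.84 times, and Pkp3, Dsp and Pkp2 were at 1.09, 1.10 and 0.733 times. Among genes of basal adhesion, a list given here by single genes and not by its count, Itga3, which encodes a laminin-binding integrin chain, was higher (4.24 times, 3.26 to 5.62). So was Lamb3, which encodes a laminin chain (2.18 times, 1.67 to 2.90). Fermt1 was lower, at 77.0 CPM in control and 24.5 in YAP5SA, and Itga6 and Itgb4, the hemidesmosome integrin, were at 0.603 and 0.936 times control.

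Of 17 regulators of stratified epithelium 8 passed the minimum, with Jag2, a Notch ligand gene, higher (2.54 times, 1.52 to 4.59) and Klf4, a factor of differentiating epithelium, lower (160 CPM in control, 56.1 in YAP5SA). Sox2 was at 10.4 and 20.3 CPM, Sfn at 365 and 504 CPM, and Ovol1 at 37.5 and 17.3 CPM. Jag2 and Sox2 also entered through YAP5SA alone. The median log2 ratio was 0.75 for the simple keratins and 0.17 for the desmosome, whose genes with 20 CPM all reached it in control, beside 0.11 over all genes. In Yap knockout, 0 genes of these lists were past 2-fold in either direction, among 1 other stratified keratin, 5 simple keratins, 7 desmosome genes, 2 envelope genes and 6 regulators with 20 CPM. The highest was Dsg2, at 2.07 times control as a plain ratio and a log2 ratio of 0.97 with 5 CPM added, and the lowest Pitx1, at 0.580 times.

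**Figure D5:**
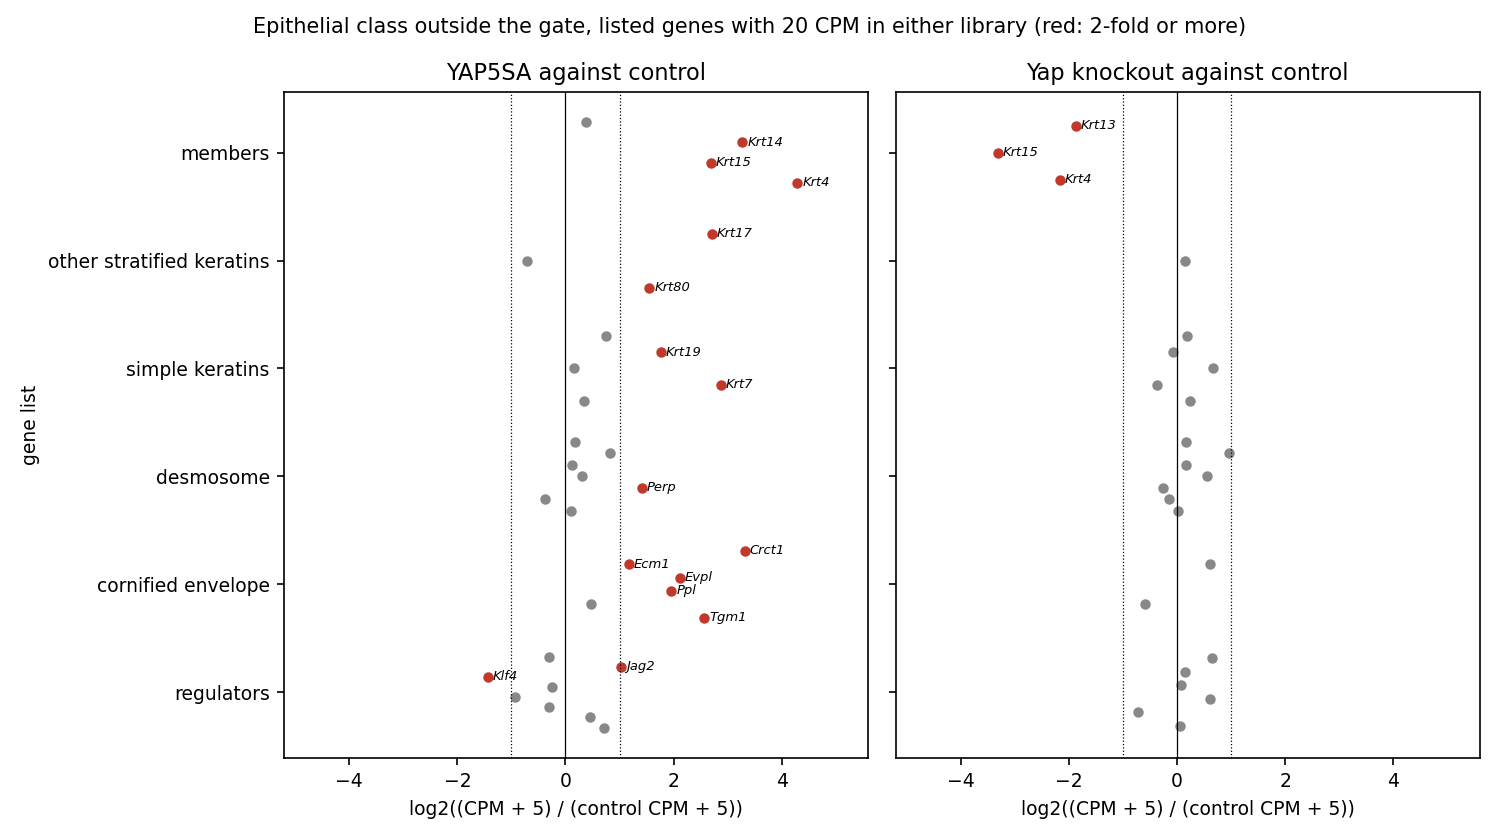
Log2 ratio to control, with 5 CPM added to both levels, of the listed genes with 20 CPM in either library in the epithelial class outside the gate; each point is 1 gene, red points are past 2-fold (dotted lines) and are named. In YAP5SA the members, cornified envelope genes and other stratified keratins hold most of the named points to the right. Of these, Krt14, Krt17, Krt80 and the 5 named envelope genes reached 20 CPM in YAP5SA alone. In Yap knockout the 3 named points are members to the left, and these reached 20 CPM in control alone.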

How the data were processed

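The authors deposited raw UMI counts, unnormalized, as 1 gene-by-cell matrix for each of 3 droplet libraries (3′ tags), written by PISA 1.0 per the file headers; STAR and GRCm39 are named in the submitters' processing notes. The annotation release, the treatment of reads that fit several genes and any free-RNA correction are not given in the sources used here, and no gene coordinates in the files' build are reported. Deposited UMIs totalled 48910624 (control), 65843658 (YAP5SA) and 40857358 (Yap knockout) in 7692, 9439 and 5739 cells, each with at least 1000 UMIs. Cell names are running labels, not barcode sequences, so names shared between libraries (1388 to 2409 per pair) do not show shared barcodes.

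Cells with at least 500 genes and at most 20% mitochondrial UMIs were kept. Scrublet (scanpy 1.11.5) called 0 doublets by its own limit in each library, so the top 6% by score were left out (413, 511 and 311 cells). UMIs were summed per class and library as CPM. CPM intervals are exact Poisson, ratios exact conditional on 2 Poisson counts, and shares Clopper-Pearson, all 95%; where a sum had 0 UMIs, 3 UMIs set the level or share allowed. Cells of 1 library are not replicates, so no test between genotypes was made. Calling genes past 2-fold was checked on simulated counts. Classes were taken from 6 markers each (at least 3 detected, ties unassigned), and epithelial subclasses from 4 (at least 2). Classes are gates on markers and not cell types. For each member the 3 most similar genes are named among those with a UMI in at least 20 YAP5SA cells; of each functional list, up to 3 of the highest and 3 of the lowest ratios and 3 of the highest levels inside the gate may be named, with all simple keratins. Genes used to describe the gate's other RNA (Pga5, Col1a1) were chosen after their values were seen. A result of the basal adhesion list is not reported here, and the list is left out of the counts and medians by list and of the plot. The members and lists were chosen with earlier results of these data known.

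Of the last 500 bases of each member's longest coding transcript (GENCODE M21), 9.53% of the 50-base words of Krt14 also occur in Krt16 or Krt17, and none of those of the other 6 in another gene, so part of the Krt14 and Krt17 counts could be split between them. Software was pandas 2.3.3, scipy 1.17.1 and numpy 2.4.6 under Python 3.11.15, with matplotlib 3.10.9 for plots.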

Additional observations from a re-analysis of the deposited data

How the results depend on the processing

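No paired analysis was possible because every genotype has 1 library. Leaving out a library was not possible for the same reason. The share of cells in the gate moved with its rule. At least 2 of the 5 genes gave 0.934%, 1.70% and 0.266% (control, YAP5SA, Yap knockout), and at least 4 gave 0.0575% in control and 0.0822% in YAP5SA. The gate without the members gave 0.0431% and 0.200%. With 1 gate gene left out and 2 of the other 4 needed, the shares were 0.657% in YAP5SA without Krt13; 0.762%, 1.06% and 0.245% without Cnfn; 0.647%, 1.24% and 0.245% without Krt5; 0.833%, 1.60% and 0.204% without Trp63; and 0.690% and 1.42% (control, YAP5SA) without Krt6a. Requiring 2 UMIs of each gate gene, an alternative chosen after seeing the data, gave 0.211% in YAP5SA, and thinning gave 0.120% in control and 0.154% in YAP5SA.

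Inside the gate the Krt4 ratio of YAP5SA to control was 3.03 with at least 2 genes, 1.14 with at least 4, 1.80 without the members, 2.20 without Krt13, 3.27 without Cnfn, 2.97 without Krt6a and 1.96 with 2 UMIs per gene. The Krt14 ratio was 14.2 with at least 2 genes, 13.2 without Trp63 and 14.8 without Krt6a. The Krt15 ratio was 1.74 with at least 4 genes, 2.15 without the members, 1.73 without Krt13, 1.57 without Trp63 and 1.51 with 2 UMIs per gene. In the epithelial class, Yap knockout had 1 member lower with the gate of at least 2 genes, and YAP5SA had 2 members lower, Krt13 and Krt6a (log2 ratios of -1.16 and -1.38), with the gate without the members. The log2 ratio of Krt5 for YAP5SA was -0.99 with at least 4 gate genes and -0.52 without the members, against 1.06 as reported. Of the listed genes, 1 was higher in Yap knockout with that gate of at least 2 genes and with a pseudocount of 1 CPM. Over all kept cells, 5 members were lower in Yap knockout with a minimum of 5 CPM or none. The causes were not tested. In the control epithelial class Krt5, Krt6a and Trp63 had 5, 5 and 0 UMIs.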

Other observations

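In control, 114 of the 338 UMIs of the basal keratin Krt5 lay in the muscle class, 84 of them in 10 of 1863 cells, with 40 in the highest cell. The muscle class of YAP5SA had 29 Krt5 UMIs in 1336 cells and that of Yap knockout 5 in 1425. Krt15 in the control muscle class had 195 of 369 UMIs in 10 cells and 93 in the highest.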
